A study of Mus musculus with 24 samples.

Results

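A set of 10 genes, most of them switched on within minutes of a stimulus or a stress, was followed through a mouse colon RNA-seq series: Fos, Fosb, Jun, Junb, Jund, Egr1, Atf3, Dusp1, Hspa1a and Hspa1b. They were taken by gene symbol, with the estimated counts of each symbol summed, and are 10 of 23329 symbols measured. All 10 passed the filter on low counts in every fit, and each has 1 RefSeq transcript in the files. The series holds 24 libraries from the colon of C57Bl/6 mice, 4 in each of 6 groups. It asks how a caNrf2 transgene, a constitutively active form of the transcription factor NRF2, and Dextran Sulfate Sodium (DSS), a chemical that injures the colon lining, change gene expression. Every mouse carried VilCre, a Cre recombinase under the villin promoter that is active in gut epithelium, and the controls carried VilCre alone. The caNrf2 mice had the genotype written VilCre-CMVcaNrf2, so that the transgene depends on a Cre that works in epithelial cells and not in the other cells of the wall. The 6 groups were untreated colon wall of control mice, untreated wall of caNrf2 mice, wall of control mice given DSS, wall of caNrf2 mice given DSS, and epithelial cells of untreated control and of untreated caNrf2 mice. Wall samples were whole pieces 10 mm long. The sources used here give no age of the mice, no dose or duration of DSS and no method of taking epithelial cells from the tissue. The series text speaks of triplicates while 4 libraries carry each group's labels. No label says that these are separate animals, so each p-value measures the spread between libraries, which may be technical.

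Immediate early genes are transcribed from factors already present in the cell, so their messenger RNA rises without new protein and decays within hours. FOS, FOSB, JUN, JUNB and JUND pair up into the transcription factor AP-1, EGR1 is a zinc finger factor induced downstream of the ERK kinases, and ATF3 is a stress-induced factor related to AP-1. DUSP1 is a phosphatase that switches off the MAP kinases which induce the others. Hspa1a and Hspa1b encode the inducible HSP70 chaperones, driven by the heat shock factor HSF1. In the colon these genes respond to growth factors, wounding and inflammation, and handling or dissociating a tissue is known to induce them as well.

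Promoter sequence from RefSeq on GRCm38.p6 was matched for 9 of the 10 genes, the exception being Egr1. The 5 stretches shown are the 150 bases before the start of transcription of those genes whose promoter held one of the motifs searched. They are written 5′ to 3′ along the gene, and capitals mark the motif.
Hspa1a promoter, chr17:34972157-34972306, minus strand: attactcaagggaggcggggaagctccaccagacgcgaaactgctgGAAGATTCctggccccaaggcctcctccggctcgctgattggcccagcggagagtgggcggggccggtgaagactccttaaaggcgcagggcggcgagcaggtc
Hspa1b promoter, chr17:34959239-34959388, minus strand: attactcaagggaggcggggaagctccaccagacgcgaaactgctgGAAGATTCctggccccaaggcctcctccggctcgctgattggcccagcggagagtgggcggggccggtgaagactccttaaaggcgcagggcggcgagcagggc
Jun promoter, chr4:95052223-95052372, minus strand: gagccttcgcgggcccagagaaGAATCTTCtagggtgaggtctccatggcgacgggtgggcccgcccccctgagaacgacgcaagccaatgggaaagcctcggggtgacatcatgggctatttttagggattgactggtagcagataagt
Dusp1 promoter, chr17:26508473-26508622, minus strand: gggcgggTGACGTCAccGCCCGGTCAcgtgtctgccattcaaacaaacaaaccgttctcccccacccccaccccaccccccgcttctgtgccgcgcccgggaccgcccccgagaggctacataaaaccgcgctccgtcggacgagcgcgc
Fos promoter, chr12:85473740-85473889, plus strand: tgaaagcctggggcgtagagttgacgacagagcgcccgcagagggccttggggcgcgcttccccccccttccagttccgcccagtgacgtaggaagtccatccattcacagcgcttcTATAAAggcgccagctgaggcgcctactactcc
In Hspa1a, Hspa1b and Jun the capitals are the heat shock element core GAANNTTC, at -104 to -97 from the start in both Hspa1 genes and at -128 to -121 in Jun. Among 32851 mouse promoters searched over 250 bases on both strands, 6.69% held it. In Dusp1 the first capitals are the cAMP response element TGACGTCA at -143 to -136, present in 1.55% of promoters. The second capitals there are the antioxidant response element core TGACNNNGC on the opposite strand at -133 to -125, the kind of site that NRF2 binds, present in 10.2% of promoters and not overlapping the first. In Fos they are the TATA box TATAAA at -33 to -28, present in 12.4%. Positions count from the start in the RefSeq promoter table, which for Fos lies 11 bases before the transcript start given below and for the other 4 genes coincides with it. The AP-1 site TGANTCA (6.75% of promoters), the CArG box (1.47%) and a longer heat shock element, the core followed by a further unit (0.466%), were in none of the 9 windows. A match describes letters and is not evidence of binding.

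The promoters of Hspa1a and Hspa1b were identical at 247 of 250 positions, and so were most of their transcripts. Of the 50-base windows of the Hspa1a transcript, 58.8% also occur in Hspa1b, and 62.3% the other way round, whereas Fos and Fosb share 0 such windows. The pair are single-exon genes on the minus strand of chromosome 17 (Hspa1a from 34969359 to 34972156 and Hspa1b from 34956429 to 34959238, mm10), 10120 bases apart. How their shared reads were divided is an estimate, so the level of either gene alone is uncertain, and the summed pair is given beside the results that turn on it. Hspa1a held 21.5% to 49.6% of the pair's counts over the 24 libraries. Jun, Junb and Jund are also single-exon genes (chromosome 4 from 95049036 to 95052222, and chromosome 8 from 84976909 to 84978748 and from 70697739 to 70700616). Fos lies on chromosome 12 (85473901 to 85477270), Fosb on 7 (19302696 to 19310045), Atf3 on 1 (191170297 to 191183333) and Dusp1 on 17 (26505591 to 26508472), each with 4 exons, and Egr1 on 18 (34861207 to 34864956) with 2.

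Levels of different genes were compared in TPM, which divides by transcript length. In untreated control wall Jund, the AP-1 subunit known for steady expression, had the highest mean, 290.2 TPM, ahead of Fos at 113 and Junb at 112, and Fosb was lowest at 19.045. In untreated caNrf2 wall the order began with Jund (148 TPM) and Junb (113) and ended with Fosb (2.39). In control epithelial cells it was another order, with Fos at 1390.2 TPM, Atf3 at 672 and Egr1 at 626 ahead of Jund at 256, and the Hspa1 pair lowest at 11.1 and 22.9. These are means of 4 libraries, and neighbours such as Fos and Junb in untreated control wall did not separate, since Fos alone ran from 38.6 to 291 TPM there. All other levels are in CPM, counts relative to library size and scaled for composition, with the 4 libraries of a group in the order of their replicate numbers.

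Total counts ran from 6683803 to 15399862 in epithelial libraries and from 20232309 to 154336039 in wall libraries, so epithelial values carry more counting error. Nfe2l2, which encodes NRF2, separated the genotypes in all 3 settings: it was at 136 to 181 CPM in control and 222 to 339 in caNrf2 epithelial cells, at 105 to 149.5 and 157 to 240.1 in untreated wall, and at 107 to 165 and 168 to 298 in DSS wall. The epithelial libraries held epithelial markers at a summed 8621 to 19549.7 (control) and 8803 to 20698 CPM (caNrf2) and smooth muscle markers at 12.1 to 57.5 and 14.4 to 81.0 CPM, against 12726 to 16194 and 11353 to 13298 CPM of smooth muscle markers in untreated wall. Untreated wall held epithelial markers at 12031 to 21452 (control) and 13681 to 16565 CPM (caNrf2), so 6 of the 8 epithelial libraries were below every untreated wall library. Summed neutrophil markers were at 5.11 to 26.6 CPM in control and 6.37 to 13.5 in caNrf2 epithelial cells. In untreated wall they were at 10.3 to 13.3 and 7.81 to 10.8 CPM. Of these markers S100a8 and S100a9 were at 0 in at least 1 epithelial library of each genotype, and S100a8 also in untreated caNrf2 wall. A few libraries stood apart in these genes. Control epithelial replicate 3 and caNrf2 epithelial replicate 1 were the lowest of their groups for 9 of the 10 genes, all but Jund. Control DSS wall replicate 4 was the highest of its group for 8 of 10, all but the Hspa1 pair. The 4 wall libraries numbered 4 also carry another number prefix in their deposited files than the rest, which no label explains. Results that rest on these libraries are given with and without them, and the plot of all members by library shows each one.

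**Figure D1:**
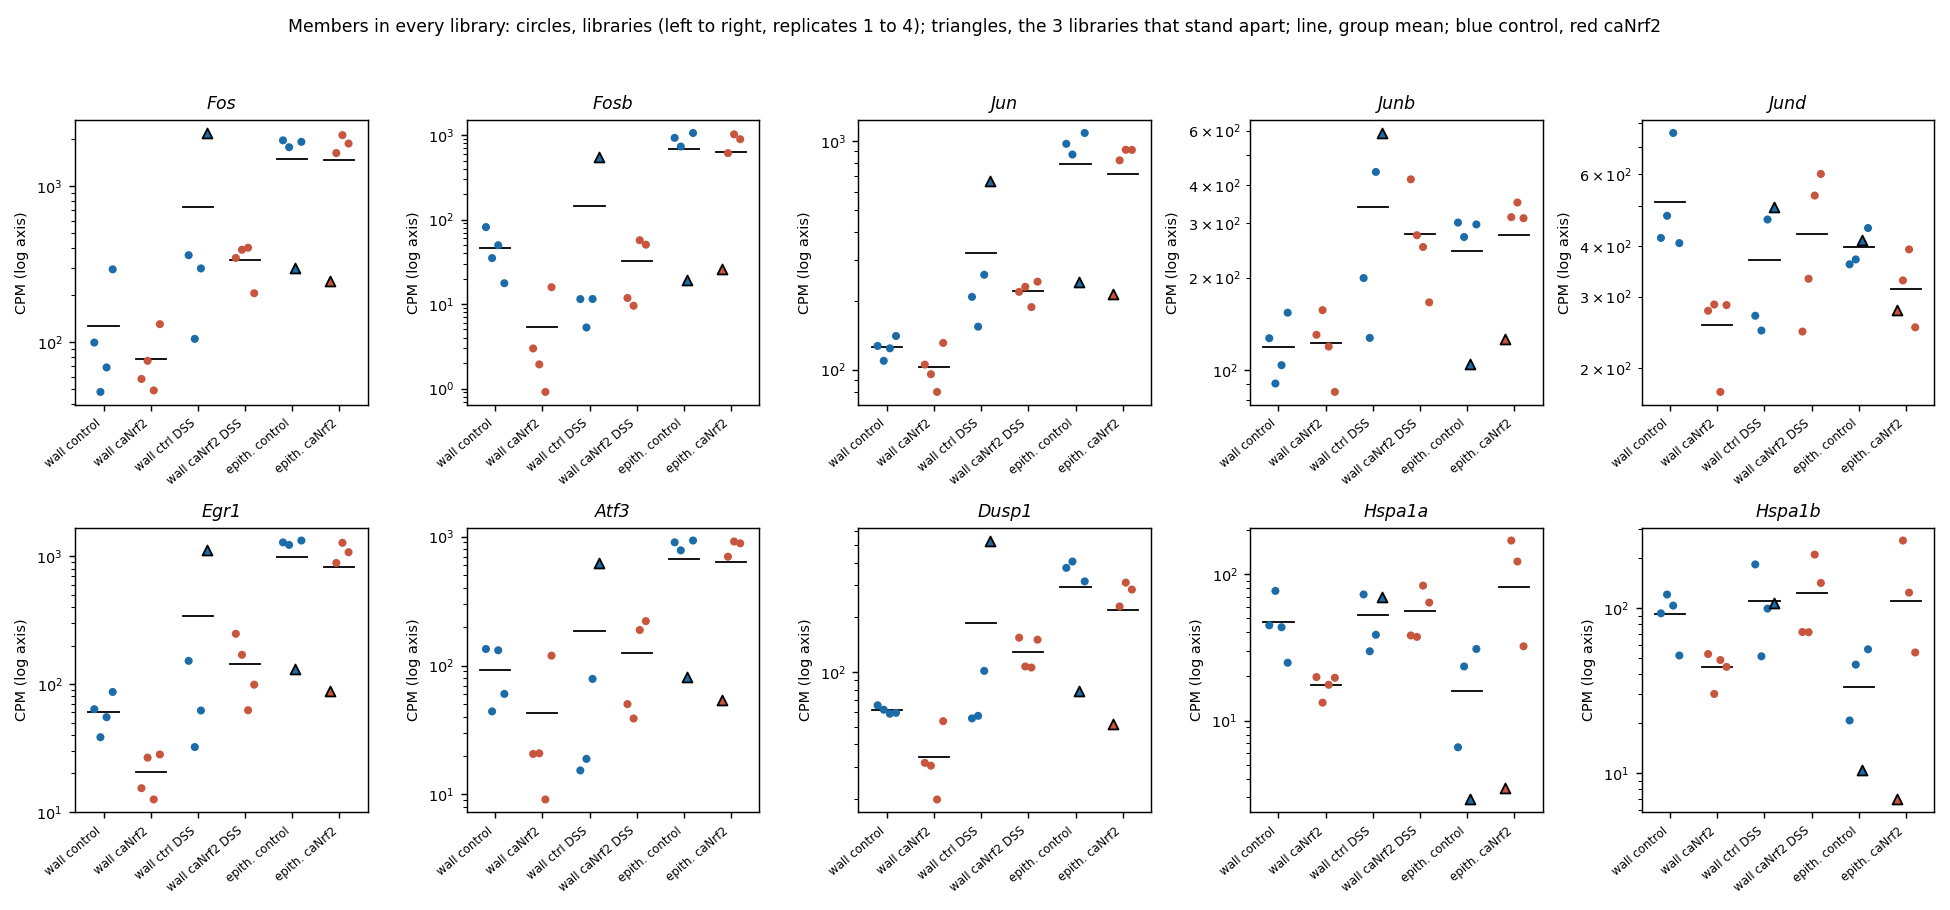
CPM of the 10 genes (vertical log axes) in the 24 libraries of 6 groups, with 1 point per library, the group mean as a line and the 3 libraries that stand apart as triangles. In epithelial cells Fos lay between 1629 and 2122 CPM in 6 libraries and at 299 and 245 in the triangles, and in control DSS wall the triangle at 2191 CPM of Fos lay above the others, which reached 360.4.

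In control mice, epithelial cells held more messenger RNA of 7 of the 10 genes than untreated colon wall, and none was lower past the threshold (edgeR's quasi-likelihood test, Benjamini-Hochberg adjusted p below 0.05 over 15073 genes, where 18.9% of all genes were higher). The fitted gains were largest for Egr1, Fosb and Fos. In caNrf2 mice 8 of 10 were higher, where 20% of all genes were (the same 7 and Hspa1a). Cell type markers differed between the same samples. In control mice 6 of 6 smooth muscle, fibroblast and enteric neuron and glia markers and 3 of 6 leukocyte markers were lower, 3 of 5 goblet and 3 of 6 crypt stem and proliferation markers were higher, and of 10 epithelial markers 2 were higher and 1 lower. In caNrf2 mice these counts were 6, 6, 5 and 2 lower, 3 and 2 higher, and 2 higher and 0 lower. Of 6 endothelial markers only 1 was lower in each genotype, and of 3 neutrophil markers tested 0 were called in either. Of 5 absorptive colonocyte markers 1 was higher and 3 were lower in each genotype, with median log2 fold changes of -2.82 in control and -2.52 in caNrf2 mice. The part of these markers in the values of the 10 genes was not tested. Epithelial cells were isolated and wall pieces were not, so the tissue and its handling cannot be told apart in this design. In bulk RNA, fewer cells of a type and less RNA per cell cannot be told apart either.

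Among the AP-1 subunits, Fos was at 99.2, 47.9, 68.7 and 292 CPM in untreated control wall and at 1965, 1775, 299 and 1922 CPM in control epithelial cells. The lowest epithelial library was replicate 3, just above the highest wall library, and the groups did not overlap. The log2 fold change was 3.71 ± 0.74 (SE, edgeR adjusted p = 0.000895), and 4.38 ± 0.76 in caNrf2 mice (adjusted p = 0.00027). Without untreated control wall replicate 4, the highest wall library, the control value was 4.57. Fosb, a FOS relative, was at 81.5, 35.0, 49.7 and 17.6 CPM in control wall and 927, 732, 19.03 and 1059.6 in control epithelial cells, so that epithelial replicate 3 lay within the wall range and the other 3 far above it.

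In caNrf2 mice Fosb was at 2.98, 1.93, 0.911 and 15.8 CPM in untreated wall and 25.7, 612, 1021 and 895 in epithelial cells, without overlap, and its log2 fold change was 7.0 ± 1.32 against 4.09 ± 1.15 in controls (edgeR adjusted p = 0.000529 and 0.0102). The wall libraries were lower in caNrf2 mice than in controls, and mean epithelial Fosb was 638 ± 443 CPM there and 684 ± 464 (SD, n = 4) in controls. Without untreated caNrf2 wall replicate 4 the value was 8.50. Jun was at 127, 109, 124 and 140.2 CPM in control wall and 972, 873, 241 and 1084 in control epithelial cells, with all 4 epithelial libraries above all wall libraries. Its log2 fold change was 2.85 ± 0.44 in control and 2.95 ± 0.44 in caNrf2 mice (edgeR adjusted p = 0.000112 and 7.59e-05).

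Junb rose less, with a log2 fold change of 1.21 ± 0.33 in control and 1.32 ± 0.33 in caNrf2 mice (edgeR adjusted p = 0.00884 and 0.0045), and the 2 epithelial libraries that stand apart fell within the wall range. Jund was alone among the AP-1 subunits in not passing. It was at 418, 474, 757 and 406 CPM in control wall and 360.2, 370.2, 412 and 442 in control epithelial cells, which overlap, and its log2 fold changes were -0.18 ± 0.21 and 0.45 ± 0.21 (edgeR adjusted p = 0.526 and 0.0936). Its epithelial values were also the ones that did not set apart control replicate 3 and caNrf2 replicate 1.

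Egr1 was at 63.5, 38.3, 55.1 and 86.8 CPM in control wall and 1289, 1232, 132 and 1333 in control epithelial cells, without overlap. Its log2 fold change was 4.21 ± 0.74 in control and 5.49 ± 0.79 in caNrf2 mice (edgeR adjusted p = 0.00032 and 4.9e-05). Atf3 was at 134, 44.1, 131 and 60.2 CPM in control wall and 903, 782, 82.1 and 932 in control epithelial cells, again with only replicate 3 inside the wall range. Atf3 changed by 3.06 ± 0.91 and 4.04 ± 0.95 on the log2 scale (edgeR adjusted p = 0.014 and 0.00276), the latter being 5.36 without untreated caNrf2 wall replicate 4. Dusp1, the phosphatase that limits this response, was at 65.5, 61.9, 58.8 and 59.5 CPM in control wall and 374, 406, 78.3 and 315 in control epithelial cells, without overlap. Its log2 fold change was 2.44 ± 0.50 and 2.84 ± 0.51 in the 2 genotypes (edgeR adjusted p = 0.00121 and 0.000364). In caNrf2 mice Dusp1 and Atf3 overlapped between the tissues. Epithelial replicate 1 there was at 51.5 CPM of Dusp1 and 54.3 of Atf3, below untreated wall replicate 4 at 53.5 and 119.

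The heat shock pair did not follow the immediate early genes in control mice. Hspa1a was at 44.7, 76.9, 43.4 and 24.8 CPM in control wall and at 6.57, 23.4, 2.89 and 30.8 in control epithelial cells. The epithelial libraries lay lower or overlapped, and the log2 fold change of -1.41 ± 0.80 did not pass (edgeR adjusted p = 0.183). In caNrf2 mice Hspa1a was at 19.8, 13.2, 17.5 and 19.6 CPM in wall and 3.47, 169.8, 122 and 32.2 in epithelial cells. Epithelial replicates 2 and 3 were high and replicate 1 was below every wall library, and the log2 fold change was 2.38 ± 0.81 (edgeR adjusted p = 0.0259). Hspa1b had -1.29 ± 0.69 in control and 1.49 ± 0.69 in caNrf2 mice (edgeR adjusted p = 0.155 and 0.091). The control value passed with only the groups compared (-1.35, adjusted p = 0.0406). The caNrf2 value was 0.65 without epithelial replicate 2, and 1.83 without replicate 1, where it passed (adjusted p = 0.00693). With the pair summed, the control value was -1.32 ± 0.73 and the caNrf2 value 1.80 ± 0.73 (edgeR adjusted p = 0.166 and 0.057), and the Hspa1a call was lost on leaving out any of 6 single libraries. These were each of the 4 caNrf2 wall libraries, with values of 2.22 to 2.43 (adjusted p = 0.0531 to 0.0716), and epithelial replicate 2 (1.74, adjusted p = 0.104) or 3 (2.11, adjusted p = 0.0599).

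**Figure D2:**
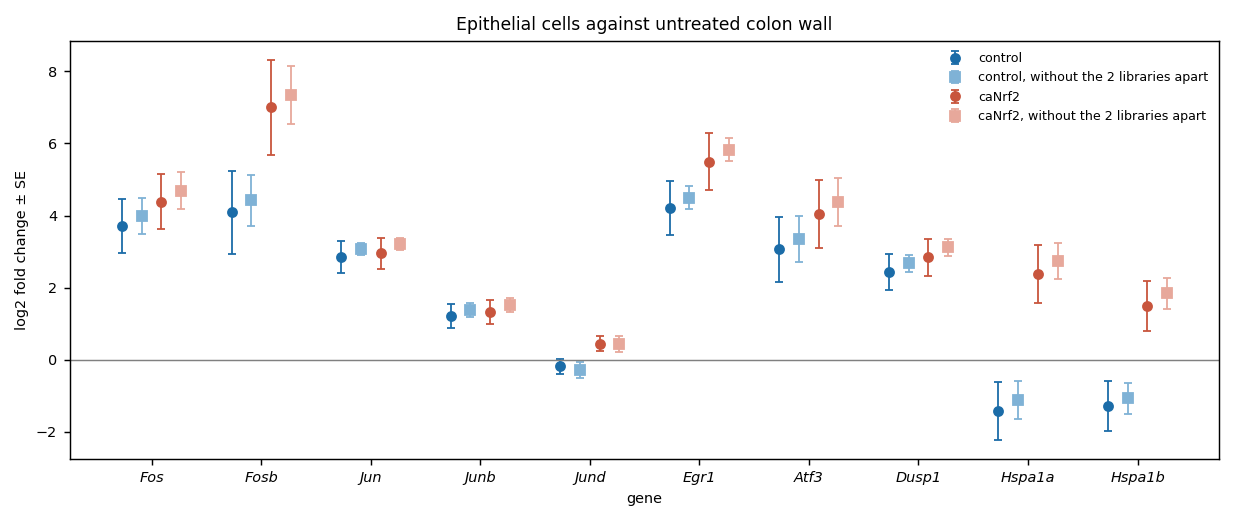
Log2 fold change (± SE, vertical axis) of each gene between epithelial cells and untreated wall, in control (blue) and caNrf2 mice (red), with pale squares for the fits without the 2 epithelial libraries that stand apart. Fos, Fosb, Jun, Junb, Egr1, Atf3 and Dusp1 lie above 0 in all 4 series, and the Hspa1 pair lies below 0 in control and above 0 in caNrf2 mice.

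Leaving out both epithelial libraries that stand apart, a choice made after seeing the data, kept the same 7 genes in control mice and called 9 in caNrf2 mice, where Hspa1b then passed (1.84 ± 0.42, edgeR adjusted p = 0.0017). These 2 libraries were low in Fos, Fosb, Jun, Junb, Egr1, Atf3, Dusp1 and the Hspa1 pair, and they differed from the other 6 epithelial libraries in cell type markers too. Summed absorptive colonocyte markers (5 of 6 in the files) were at 17866 CPM in control replicate 3 and 20177 in caNrf2 replicate 1, against 1075 to 4257 in the other 6. Summed epithelial markers (10 of 10) were at 19550 and 20699 CPM, against 8621 to 11795. Endothelial sums (6 of 6) ran the other way, at 6.22 and 5.80 CPM against 28.2 to 73.4. So did smooth muscle sums (12.1 and 14.4 against 36.2 to 81.0) and fibroblast sums (7.40 and 20.3 against 53.6 to 201). Neutrophil sums (5.11 and 6.37 against 7.69 to 26.6) and enteric neuron and glia sums (0.889 and 0.920 against 1.53 to 6.35) were lower too. Goblet sums were 14639 and 10951 CPM against 11346 to 16819, with control replicate 3 inside that range. Leukocyte sums were 14.7 and 18.1 CPM against 17.85 to 30.6, with caNrf2 replicate 1 inside it. Crypt stem and proliferation markers were at 415 and 373 CPM against 540.5 to 889. Counted over all epithelial libraries of a genotype, the endothelial marker Kdr was at 0 in at least 1 control library. Tek and Emcn were each at 0 in at least 1 caNrf2 library. The part of these differences in the results for the 10 genes was not tested. The plot of Fos against marker sums sets the 2 libraries beside the others.

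**Figure D3:**
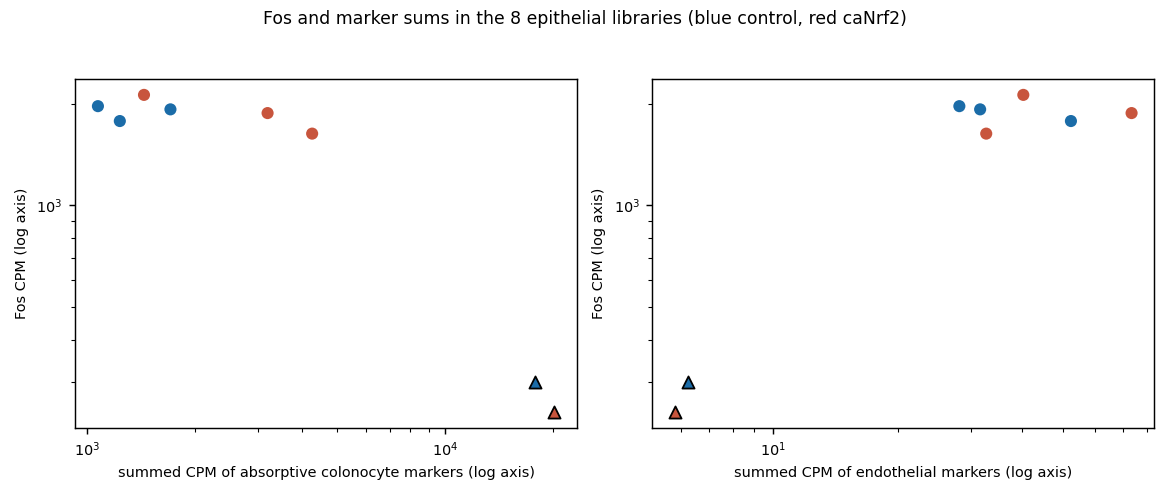
Fos CPM (vertical log axis) against the summed CPM of absorptive colonocyte markers (left) and endothelial markers (right, log axes) in the 8 epithelial libraries, blue for control and red for caNrf2. The triangles, at 299 and 245 CPM of Fos, have colonocyte sums of 17866 and 20177 CPM, and the 6 circles have 1075 to 4257.

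Other genes of the response, from lists chosen with earlier results in view, changed in both directions between the tissues. Over all genes 38.6% were called in either direction in control and 43.5% in caNrf2 mice. Of 55 other immediate early genes tested, 17 were higher and 6 lower in control epithelial cells (41.8% called in either direction, near the share of all genes). In caNrf2 mice 27 were higher and 6 lower (60%). The 17 and 27 that were higher were larger shares of the 55 than the 18.9% and 20% of all genes that were higher. Their median log2 fold change was 0.21 in control and 0.64 in caNrf2 mice, beside 0.04 and -0.01 over all genes and 2.64 and 2.90 over the 10 genes. Zfp36, an RNA-binding protein that destabilises messages, was at 120.5 ± 30.2 CPM (SD, n = 4) in control wall and 576 ± 246 in control epithelial cells, and Ier2 at 78.1 ± 7.26 and 392 ± 187. Egr2, a relative of Egr1, rose by 6.12 on the log2 scale and Hbegf, a ligand of the EGF receptor, by 2.80 (edgeR adjusted p = 0.000359 and 0.000486). Ctgf, a matricellular gene, had -5.14 and Npas4 -3.77, and both fell.

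Of 11 other MAP kinase phosphatases, 3 were higher and 2 lower in control epithelial cells (45.5% called), among them Dusp8 (1.94) up and Dusp10 (-1.17) down, and 4 and 3 in caNrf2 mice (63.6%). Of 22 AP-1 partners outside the 10 genes, 5 rose and 4 fell in control mice (40.9% called), Batf (-2.91) and Jdp2 (-2.44) among those that fell. In caNrf2 mice 7 rose and 4 fell (50%), with Fosl1, a FOS relative, among those that rose (3.38). Fosl1 is also counted among the other immediate early genes, and Nfe2l2, which encodes NRF2, is on the AP-1 partner list. Of 34 upstream kinases and factors, 5 rose and 6 fell in control (32.4% called) and 9 and 4 in caNrf2 mice (38.2%). Of 48 heat shock and chaperone genes tested, 8 were higher and 12 lower in control mice (41.7% called), and 9 and 16 in caNrf2 mice (52.1%). The small heat shock proteins Cryab, Hspb1 and Hspb6 had log2 fold changes of -5.99, -6.61 and -2.73 in control mice, and all 3 fell. Cryab was at 55.2 ± 21.1 CPM in control wall and 0.781 ± 0.477 in epithelial cells. Smooth muscle markers fell for 6 of 6 genes in the same comparison, and their part in the chaperone values was not tested. The HSP60 gene Hspd1 and the cochaperone Bag1 rose in control mice (0.73 and 0.79), and Bag1 in caNrf2 mice too (0.60). Hsf1 itself and the HSP40 gene Dnajb1 rose in caNrf2 mice (0.88 and 0.99). In control mice Hsf1 was at 26.3 to 32.6 CPM in wall and 34.4 to 43.9 in epithelial cells, without overlap. Dnajb1 overlapped there, at 55.7 to 73.5 and 60.3 to 108 CPM. In caNrf2 mice Hspd1 was at 249 to 279 CPM in wall and 316 to 343 in epithelial cells.

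After DSS, 5 of the 10 genes were higher in control wall (Fos, Jun, Junb, Egr1 and Dusp1) and 7 in caNrf2 wall (the same 5 with Hspa1a and Hspa1b), and none was lower (edgeR, adjusted p below 0.05 over 16074 genes). Over all genes 23.1% were higher in each genotype. The median log2 fold change of the 10 genes was 1.53 in control and 1.61 in caNrf2 wall, beside 0.06 and 0.01 over all genes. In caNrf2 wall every DSS library was above every untreated one for 7 of the 10 genes, as was so for 18.2% of all genes. These were the 7 genes called, and both results rest on the same values. In control wall the calls leaned on replicate 4 of the DSS group: without it only Jun and Junb passed.

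Fos was at 360.4, 105, 296 and 2191 CPM in control DSS wall, against 99.2, 47.9, 68.7 and 292 when untreated. Replicate 4 was above every other wall library and the groups overlapped. The log2 fold change was 2.61 ± 0.76 (edgeR adjusted p = 0.0129), 1.06 ± 0.54 without DSS replicate 4 (adjusted p = 0.145), and 3.41 without untreated replicate 4. In caNrf2 wall Fos was at 346, 390.4, 402 and 206 CPM with DSS and 58.0, 75.8, 48.9 and 130.2 without. All 4 DSS libraries were above the untreated ones, and the log2 fold change was 2.12 ± 0.75 (edgeR adjusted p = 0.0321). That call was lost without any 1 of untreated replicates 1, 2 or 3 or DSS replicates 1, 2 or 3 (1.95 to 2.09, adjusted p = 0.0553 to 0.0805).

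Jun and Junb were the 2 genes called in both genotypes that also passed without control DSS replicate 4. Jun was at 208, 154, 259.8 and 671 CPM in control DSS wall, above all untreated control libraries (109 to 140.2 CPM), and at 219, 230.0, 188 and 242 in caNrf2 DSS wall, above all untreated caNrf2 libraries (79.8 to 131). Its log2 fold changes were 1.46 ± 0.34 and 1.12 ± 0.33 (edgeR adjusted p = 0.00345 and 0.0144), and 0.81 ± 0.20 in control wall without replicate 4. Junb was at 199, 127, 440.5 and 589 CPM in control DSS wall and 417, 274, 251 and 166 in caNrf2 DSS wall, against 90.6 to 154 and 85.1 to 157 when untreated. Its log2 fold changes were 1.61 ± 0.40 and 1.21 ± 0.39 (edgeR adjusted p = 0.0052 and 0.0218), the first 1.19 ± 0.37 without control DSS replicate 4. The Junb call in caNrf2 wall was lost without untreated replicate 4 (1.03, adjusted p = 0.063) or DSS replicate 1 (0.89, adjusted p = 0.0871).

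Egr1 was at 152, 32.1, 62.1 and 1126 CPM in control DSS wall and 248, 169.7, 62.4 and 98.9 in caNrf2 DSS wall. In control wall only replicates 1 and 4 exceeded the untreated range of 38.3 to 86.8 CPM, while in caNrf2 wall all 4 exceeded the untreated 12.5 to 28.1. The log2 fold changes were 2.59 ± 0.82 and 2.84 ± 0.83 (edgeR adjusted p = 0.0201 and 0.0128). The control value was 0.49 ± 0.49 without DSS replicate 4, and its call was also lost without untreated replicate 2 (2.42, adjusted p = 0.0548) or 3 (2.44, adjusted p = 0.0565). Dusp1 was at 55.5, 57.3, 101 and 529.7 CPM in control DSS wall, 2 of them below the untreated range of 58.8 to 65.5, and at 154, 107, 106 and 151 in caNrf2 DSS wall against 19.8 to 53.5, without overlap. Its log2 fold changes were 1.70 ± 0.56 and 1.96 ± 0.57 (edgeR adjusted p = 0.0247 and 0.0122). In control wall that was 0.30 ± 0.29 without DSS replicate 4, and the call was also lost without untreated replicate 1, 2 or 3 (1.57 to 1.73, adjusted p = 0.0518 to 0.0676).

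The heat shock pair passed in caNrf2 wall alone, which is no test of a difference between genotypes. Hspa1a was at 19.8, 13.2, 17.5 and 19.6 CPM in untreated and 38.1, 37.3, 83.6 and 64.0 in DSS caNrf2 wall, without overlap. In control wall it was at 44.7, 76.9, 43.4 and 24.8 CPM untreated and 72.7, 29.7, 38.5 and 69.6 with DSS, which overlap. The log2 fold changes were 1.68 ± 0.35 in caNrf2 and 0.24 ± 0.34 in control wall (edgeR adjusted p = 0.00155 and 0.591). Hspa1b had 1.51 ± 0.38 and 0.35 ± 0.37 (adjusted p = 0.00533 and 0.474), and the summed pair 1.56 ± 0.36 and 0.31 ± 0.35 (edgeR adjusted p = 0.0033 and 0.502). For Hspa1a the 4 untreated caNrf2 libraries were lower than all 12 other wall libraries, and for Hspa1b they overlapped the untreated control libraries.

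Fosb, Atf3 and Jund did not pass in either genotype in edgeR's fit over all wall libraries, and each passed in caNrf2 wall under some alternative. Fosb was at 11.5, 5.28, 11.5 and 555 CPM in control DSS wall, where replicates 1 to 3 were below every untreated control library (17.6 to 81.5 CPM) and replicate 4 was far above. Its log2 fold change was 1.78 ± 1.2 with replicate 4 and -2.21 ± 0.86 without it (edgeR adjusted p = 0.25 and 0.0614). Without all 4 wall libraries numbered 4 it was -2.52 ± 0.64 and passed (edgeR adjusted p = 0.00913). In caNrf2 wall Fosb was at 2.98, 1.93, 0.911 and 15.8 CPM untreated and 11.8, 9.54, 57.0 and 50.5 with DSS. The log2 fold change of 2.53 ± 1.26 (edgeR adjusted p = 0.116) became 4.08 without untreated replicate 4 (adjusted p = 0.0382), and it passed with only the groups compared (2.53, adjusted p = 0.0401). Atf3 was at 15.4, 18.9, 78.7 and 622 CPM in control DSS wall, with 1.10 ± 1.01 and then -1.19 ± 0.85 without replicate 4 (edgeR adjusted p = 0.4 and 0.293). In caNrf2 wall Atf3 had 1.54 ± 1.02 (adjusted p = 0.237), and 2.88 without untreated replicate 4 (adjusted p = 0.0479). Jund had -0.37 ± 0.30 in control and 0.76 ± 0.30 in caNrf2 wall (edgeR adjusted p = 0.334 and 0.0525), and 0.91 in caNrf2 wall without DSS replicate 1 (adjusted p = 0.0252). DESeq2 called Jund there as well (0.74, adjusted p = 0.0375).

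**Figure D4:**
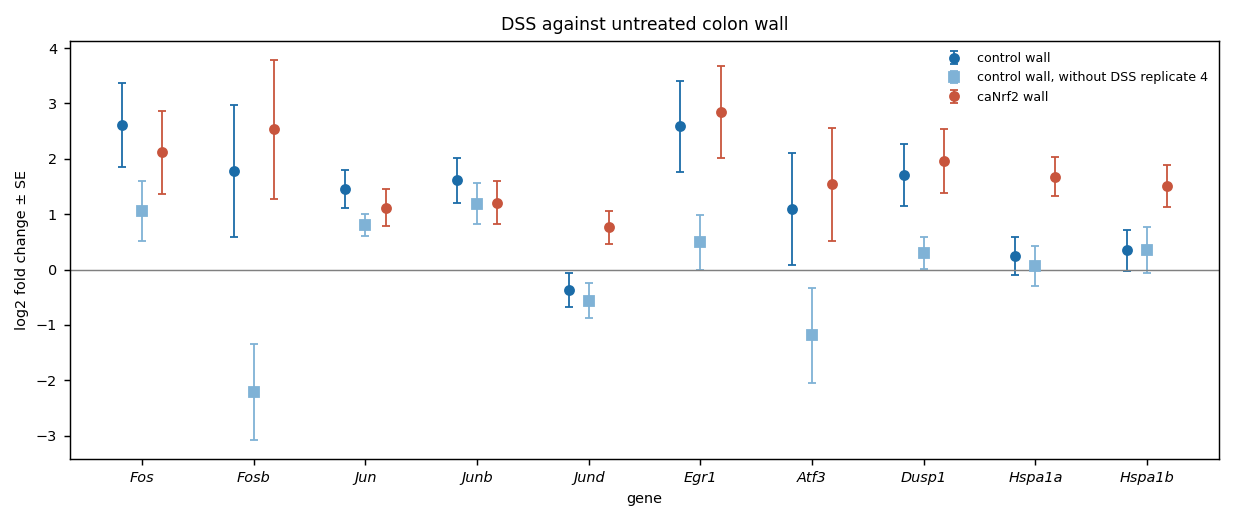
Log2 fold change (± SE, vertical axis) of each gene between DSS and untreated wall, in control wall (blue circles), control wall without DSS replicate 4 (pale squares) and caNrf2 wall (red). Leaving out that library took Fos from 2.61 to 1.06 and Egr1 from 2.59 to 0.49 and put Fosb and Atf3 below 0, while Hspa1a in control wall went from 0.24 to 0.07.

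Without the 4 wall libraries numbered 4, 4 genes passed in control wall (Fos, Jun and Junb higher, Fosb lower) and 9 in caNrf2 wall, all but Jund. Fos was then at 1.87 ± 0.38 in control wall and Egr1 at 0.70 ± 0.54 (edgeR adjusted p = 0.00323 and 0.313). Cell type markers moved with DSS too. In control wall 6 of 6 neutrophil, 6 of 6 endothelial, 6 of 6 fibroblast and 4 of 6 leukocyte markers were higher, as were 6 of 6 enteric neuron and glia markers, and 5 of 6 crypt stem and proliferation and 3 of 10 epithelial markers were lower. In caNrf2 wall these counts were 5, 6, 6, 3 and 6 higher, and 2 and 1 lower. Summed neutrophil markers were at 10.3 to 13.3 CPM in untreated and 22.6 to 151 in DSS control wall, where replicate 4 was the highest, and at 7.81 to 10.8 and 31.7 to 104 CPM in caNrf2 wall. S100a8 and Retnlg were at 0 in some untreated caNrf2 libraries. Control DSS replicate 4 also had the most fibroblast signal (3754 CPM against 2018 to 2542 in the other 3) and the least smooth muscle signal (8688 against 14842 to 35509.7 CPM) of its group. The part of these markers in the values of the 10 genes was not tested.

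Over all genes 39.2% were called in either direction after DSS in control wall and 41.2% in caNrf2 wall. Of 54 other immediate early genes tested, 15 were higher and 3 lower in control wall (33.3% called), and 21 higher and 1 lower in caNrf2 wall (40.7%). The shares called in either direction were thus at or below those of all genes. The 15 and 21 that were higher were larger shares of the 54 than the 23.1% of all genes higher in each genotype. Their median log2 fold changes were 0.30 and 0.78. Socs3, a feedback inhibitor of cytokine signalling, rose in both (2.70 and 3.96 on the log2 scale, edgeR adjusted p = 0.00132 and 0.000142), from 33.6 ± 16.7 to 203 ± 68.0 CPM in control and from 9.01 ± 0.656 to 136 ± 115 CPM in caNrf2 wall (SD, n = 4). Zfp36, Rgs2 and Rhob rose in control wall (2.02, 1.83 and 1.10) and Arid5b, Gadd45g and Ier3 in caNrf2 wall (1.40, 1.71 and 2.19). At most 4 genes per direction were named in each genotype, so this split shows no difference between genotypes. In caNrf2 wall Zfp36 was at 89.7 to 102.58 CPM untreated and 228.23 to 412.45 with DSS, without overlap. Rhob was at 167.16 to 216.1 and 246.52 to 393.03 CPM there, also without overlap. Rgs2 overlapped in caNrf2 wall, as did Arid5b, Gadd45g and Ier3 in control wall. Myc, the growth factor-induced transcription factor, fell in both (-2.07 and -1.04), and in control wall so did Fosl1 (-3.13) and the growth arrest gene Gadd45a (-0.80). Of 11 MAP kinase phosphatases 2 were higher and 2 lower in control wall and 4 higher in caNrf2 wall (36.4% called in each), with Dusp6, the phosphatase of ERK, higher in both (1.18 and 1.72). Dusp9 and Dusp4 fell in control wall (-1.47 and -0.87).

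Of 22 AP-1 partners, 10 were higher and 3 lower in control wall (59.1% called), with Maf (1.99) and Batf (1.27) up and Atf4 (-0.98) and Bach1 (-0.89) down, and 7 were higher in caNrf2 wall (31.8%), among them Crem (1.29) and Jdp2 (1.23). Of 34 upstream kinases and factors 7 were higher and 1 lower in control wall (23.5% called), and 10 higher in caNrf2 wall (29.4%), among them in both Elk3, a partner of the serum response factor (1.31 and 1.48). Of 49 heat shock and chaperone genes tested, 10 were higher and 9 lower in control wall (38.8% called), and 14 and 7 in caNrf2 wall (42.9%), with medians of -0.08 and 0.26. The collagen chaperone Serpinh1 rose in both (0.90 and 1.19), and Hspa2, a testis-rich HSP70, in caNrf2 wall (1.81). Hspa2 was not among the genes named for control wall, but its groups did not overlap there either. It was at 12.11 to 18.01 CPM in untreated and 21.34 to 63.23 in DSS control wall. The mitochondrial chaperones Hspa9 and Hspe1 fell in both (-0.72 and -0.69 in control, -0.50 and -0.67 in caNrf2 wall). Dnajb1, an HSF1 target, rose in control wall (0.59), where the Hspa1 pair did not pass.

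The difference of the DSS response between genotypes was tested directly as an interaction, and 0 of the 10 genes and 0 of 16074 passed in edgeR (0% called). At an unadjusted p below 0.05 there were 3 of the 10 and 1279 of all genes, and DESeq2 called 0 of the 10 and 40 of all. Hspa1a had the largest of those 3, 1.44 ± 0.48 (edgeR adjusted p = 0.47), then Hspa1b at 1.16 ± 0.53 and Jund at 1.13 ± 0.42 (adjusted p = 0.608 and 0.523). The summed pair had 1.25 ± 0.50 (edgeR adjusted p = 0.564). Without the 4 wall libraries numbered 4, the interaction passed for Fosb (6.30 ± 0.95, edgeR adjusted p = 0.0174) and Dusp1 (1.93 ± 0.36, adjusted p = 0.0349), both with a more positive DSS change in caNrf2 wall. Among related genes Dusp10 had 1.68 and Fosl1 4.61 (edgeR adjusted p = 0.172 and 0.327).

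Between genotypes, none of the 10 genes passed in epithelial cells, in untreated wall or in DSS wall (edgeR, with 0%, 0.224% and 0.0933% of all genes called). In untreated wall 9 of 10 were fitted lower in caNrf2 mice, with a median of -1.0 beside -0.02 over all genes, and 4 had an unadjusted p below 0.05. DESeq2 called 1 of them, Hspa1a. For 5 of the 10 every caNrf2 library was lower than every control library, against 3.84% of all genes (Fosb, Jund, Egr1, Dusp1 and Hspa1a). Fosb was at 81.5, 35.0, 49.7 and 17.6 CPM in control and 2.98, 1.93, 0.911 and 15.8 in caNrf2 wall, a log2 difference of -3.00 ± 1.28 (edgeR adjusted p = 0.411). Hspa1a had -1.40 ± 0.34 (adjusted p = 0.124), Jund -0.97 ± 0.30 (0.231), Egr1 -1.54 ± 0.79 (0.539) and Dusp1 -0.83 ± 0.55 (0.665). The summed Hspa1 pair had -1.15 ± 0.36 (edgeR adjusted p = 0.234).

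These untreated values turned on the libraries numbered 4. Without all 4 of them Fosb (-4.84 ± 0.73, edgeR adjusted p = 0.00903), Dusp1 (-1.16 ± 0.25, 0.0353) and Hspa1a (-1.68 ± 0.39, 0.0424) passed, and without untreated control replicate 4 alone Hspa1a did (-1.60 ± 0.34, adjusted p = 0.0255). Of 54 other immediate early genes, 43 were fitted lower (median -0.50) and 0 passed, with Fosl1 at -3.31 and Ier5 at -0.75 (edgeR adjusted p = 0.0885 and 0.128). Of 11 MAP kinase phosphatases, 10 were fitted lower and Dusp10, which acts on p38 and JNK, passed: it was at 18.8 ± 7.04 CPM in control and 7.80 ± 0.372 in caNrf2 wall (SD, n = 4), a log2 fold change of -1.24 (edgeR adjusted p = 0.0348). Of 49 heat shock and chaperone genes 37 were fitted lower (median -0.11) and 0 passed. AP-1 partners and upstream kinases had medians of -0.01 each and no call. No marker of any of the 10 cell type lists passed between genotypes in untreated wall, DSS wall or epithelial cells. Over all genes only 0.224%, 0.0933% and 0% passed there, so this cannot show that the cell types were alike. In untreated wall the neutrophil markers had a median of -1.22, and the other lists had medians from -0.40 to 0.28.

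In DSS wall 7 of 10 genes were fitted lower in caNrf2 mice (median -0.58 beside -0.02 over all genes), 0 had an unadjusted p below 0.05, and DESeq2 called 0. All 7 turned positive without control DSS replicate 4. Fos went from -1.18 ± 0.73 to 0.38 and Fosb from -2.25 ± 1.22 to 1.74, and Dusp1 from -0.57 ± 0.55 to 0.83, so no direction can be given. The Hspa1 pair was at 0.04 ± 0.34 and 0.13 ± 0.37, and at 0.10 ± 0.35 when summed. None of the related lists held a call there, and the differences with small p included Mafg at 0.98 and Dusp4 at 0.95 (edgeR adjusted p = 0.0975 and 0.944).

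In epithelial cells the 8 genes other than the Hspa1 pair did not pass between genotypes, with log2 differences from -0.38 (Dusp1) to 0.21 (Junb) and SEs of up to 1.08. Fos averaged 1490.2 ± 799 CPM in control and 1467 ± 839.7 in caNrf2 cells (SD, n = 4), each with 1 of the libraries that stand apart. The Hspa1 pair was the exception in size: Hspa1a was at 6.57, 23.4, 2.89 and 30.8 CPM in control and 3.47, 169.8, 122 and 32.2 in caNrf2 cells. Replicates 2 and 3 were far above every control library, replicate 4 was close to the highest control and replicate 1 near the lowest. The log2 difference was 2.41 ± 1.04 for Hspa1a and 1.76 ± 0.88 for Hspa1b (edgeR adjusted p = 0.468 and 0.541), and 2.0 ± 0.93 for the summed pair (adjusted p = 0.503). Without caNrf2 replicate 2 it was 1.79 for Hspa1a and 0.94 for Hspa1b. Hspa1a was the 1 of 10 genes, with 1344 of 12941 genes in all, at an unadjusted p below 0.05, and DESeq2 called 0 of the 10 and 215 of all. Without the 2 libraries that stand apart Hspa1a passed (2.48 ± 0.62, edgeR adjusted p = 0.0459), as did 835 genes in all, and Hspa1b did not (1.88 ± 0.51, adjusted p = 0.0586). No gene of the related lists passed. Hspa4l and Dnaja4, other chaperones, had -1.07 and -1.22 (edgeR adjusted p = 0.219 and 0.228), and Atf5, a stress factor of the ATF family, 1.5 (adjusted p = 0.219).

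**Figure D5:**
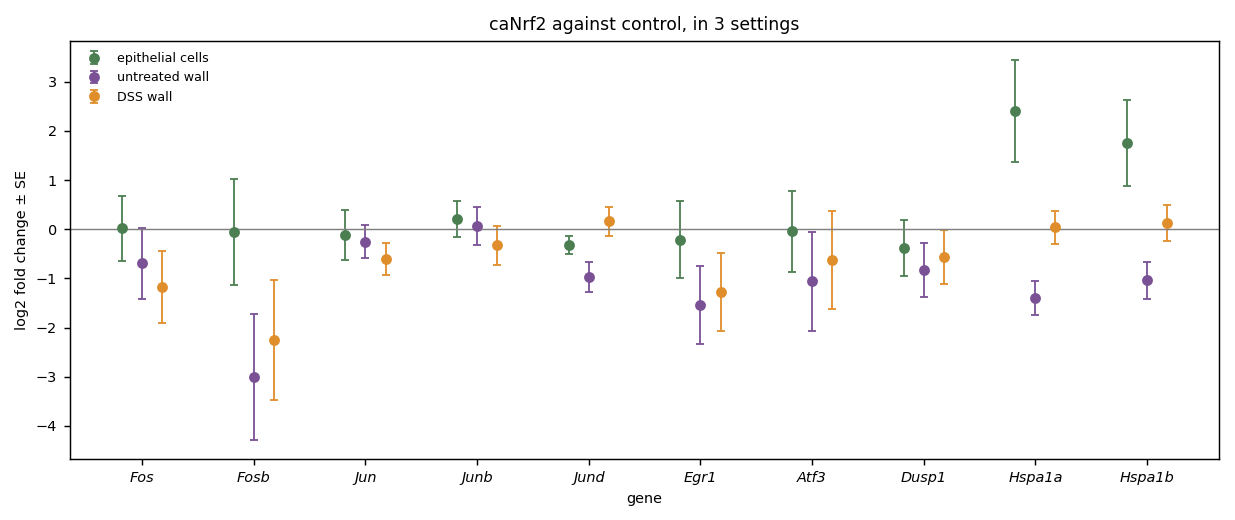
Log2 fold change (± SE, vertical axis) of each gene between caNrf2 and control samples in epithelial cells (green), untreated wall (purple) and DSS wall (orange). The Hspa1 pair lies above 0 in epithelial cells (2.41 for Hspa1a) and below 0 in untreated wall (-1.40), and none of the 30 values passed the threshold.

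The opposite signs of the Hspa1 pair in epithelial cells and untreated wall were tested as a difference of genotype effects. It was 3.79 ± 1.14 for Hspa1a and 2.78 ± 0.97 for Hspa1b (edgeR adjusted p = 0.435 and 0.509), and 3.12 ± 1.03 for the summed pair (adjusted p = 0.457). Without caNrf2 epithelial replicate 2 it was 3.15 and 1.94. In edgeR 0 of the 10 genes and 0 of 15073 passed (0% called). At an unadjusted p below 0.05 there were 3 of the 10 (the pair and Jund, 0.63 ± 0.29) and 1203 of all, and DESeq2 called 0 and 66. Without the 2 epithelial libraries that stand apart both passed (Hspa1a 3.86 ± 0.72, edgeR adjusted p = 0.0373, and Hspa1b 2.89 ± 0.60, adjusted p = 0.048), with 70 genes in all. Those libraries were chosen after their values were seen.

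Within groups, the genes differed in how far they moved together. Over the 16 wall libraries, with each group's mean log2 CPM taken off, the correlation with the mean of the 10 genes (to which each belongs) was 0.95 for Fosb, 0.94 for Jun, 0.92 for Dusp1 and 0.90 for Atf3, and 0.80 for Fos and 0.78 for Egr1. It was lower for Jund (0.60), Junb (0.54), Hspa1a (0.46) and Hspa1b (0.32). The 10 other genes most alike by the same measure were Cyr61 (0.93), Errfi1 (0.92), Nr4a1 (0.91), Rhou (0.88), Hbegf (0.87), Csrnp1, Trib1 and 8430408G22Rik (0.83 each), and Slc25a25 and Btg2 (0.82 each). Of these, 7 were on the list of other immediate early genes. All 10 were highest in replicate 4 within the control DSS group. Cyr61, a secreted matricellular protein, was at 268 CPM there and at most 35.3 in the other 15 wall libraries, and Nr4a1, an orphan nuclear receptor, at 354 and 119. Rhou and Slc25a25 were not highest there among all wall libraries. These correlations share the libraries and their depth, lean on that single library, and are descriptions.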

How the data were processed

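RNA of 24 mouse colon samples, 4 in each of 6 groups, was sequenced. The deposited files hold, per RefSeq transcript, the authors' estimated counts and their TPM values. Per the submitters' processing notes RSEM 1.2.11, FastQC and mm10 were used, and these give neither their roles nor their order. RNA was extracted with an RNeasy Mini kit, per the labels' protocols. Of the deposited estimated counts 39.2% were not whole (tolerance 1e-06).

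Counts were summed per gene symbol and rounded. edgeR 4.0.16 (R 4.3.3, limma 3.58.1) was used for quasi-likelihood tests with TMM scaling, a group-wise filter on low counts, and Benjamini-Hochberg adjustment over all genes at 0.05. Epithelial libraries, wall libraries, and epithelial with untreated wall libraries were fitted as 3 sets, with 12941, 16074 and 15073 genes. An SE is the size of a log2 fold change over the root of its F statistic. CPM used TMM factors over all 24 libraries. The procedure was tested on simulated data.

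The members and the related lists were chosen with earlier results of these data known. From each related list, up to 4 genes per direction with the smallest adjusted p among those past the threshold could be named, and up to 2 with the smallest p where none passed. Alternatives were DESeq2 1.42.0, other scaling and filters, a replicate block, only the groups compared, and libraries left out. No 2 libraries were identical in their counts. Replicate numbers were treated as names, since the labels do not tie them to animals or days. Protein sequences and the Egr1 promoter were not used here. A gene that this rule would name is not reported here.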

Additional observations from a re-analysis of the deposited data

Results flagged for a closer look

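Each gene was examined in each group of 4 libraries for a single library far from the other 3. Of 60 such sets 12 held one. The limit used would flag about 1 in 20 sets of independent, normally spread values. These genes share their libraries and moved together, so the count is a description and no test against chance.

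In control wall after DSS, replicate 4 stood above the others in 5 genes. It had 2191 CPM of Fos against 105 to 360.4, and 555 CPM of Fosb against 5.28 to 11.5. Egr1 was at 1126 CPM against 32.1 to 152, Atf3 at 622 against 15.4 to 78.7, and Dusp1 at 529.7 against 55.5 to 101.

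In control epithelial cells, replicate 3 stood below the others in 3 genes. Fos was at 299 CPM against 1775 to 1965, Junb at 105 against 271 to 302, and Egr1 at 132 against 1232 to 1333. In caNrf2 epithelial cells, replicate 1 had 213 CPM of Jun against 823 to 916.

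In untreated caNrf2 wall, replicate 4 had 15.8 CPM of Fosb against 0.911 to 2.98 and 119 CPM of Atf3 against 9.15 to 20.8. Replicate 3 of that group had 175.0 CPM of Jund against 277 to 287.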

How the results depend on the processing

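Epithelial libraries were shallower than wall libraries, and groups of 4 left SEs of up to 1.67 on the log2 scale. DESeq2's size factors in edgeR turned no direction of the 10 genes. Between epithelium and wall, each of the 7 genes called in control mice was called under every single library left out (7 to 7 calls), and 7 to 9 were called in caNrf2 mice. The causes of the changes below were not tested.

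Calls over all genes between genotypes in epithelial cells went from 0 to 215 with DESeq2, and to 835 without the 2 libraries that stand apart, with 1 of the 10 genes. In untreated wall 36 became 235 with DESeq2, 10 with only the groups compared and 404 without the libraries numbered 4, and 0 of the 10 genes became 1 and 3 in the first and last of these. In DSS wall 15 became 43 with DESeq2 and 0 without the libraries numbered 4. In control wall the 5 genes called after DSS became 3 with only the groups compared, without Egr1 (2.52, edgeR adjusted p = 0.0526) and Dusp1 (1.62, 0.0677). The interaction of genotype and DSS went from 0 to 40 genes with DESeq2 and 98 without the libraries numbered 4, with 2 of the 10. The difference of genotype effects between tissues went from 0 to 66 with DESeq2 and 70 without the 2 epithelial libraries, with 2 of the 10.

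With single libraries left out, calls ranged over 0 to 24 genes between genotypes in epithelial cells, 5 to 320 in untreated wall (0 to 1 of the 10) and 0 to 36 in DSS wall, 2 to 5 of the 10 for DSS in control wall, and 0 to 93 and 0 to 12 genes for the interactions with DSS and with tissue. Some fitted changes of the 10 genes crossed 0, giving ranges of log2 values. For the DSS change in control wall these were Fosb -2.21 to 2.22, Atf3 -1.19 to 1.49 and Hspa1a -0.01 to 0.57. For the interaction of genotype and DSS these were Fos -1.34 to 1.06, Jun -0.58 to 0.31, Junb -0.67 to 0.02, Egr1 -0.14 to 2.35 and Dusp1 -0.05 to 1.65. For the difference of genotype effects between tissues these were Fos -0.19 to 1.06, Jun -0.17 to 0.43 and Junb -0.12 to 0.37. For the genotype difference in DSS wall these were Fos -1.55 to 0.38, Fosb -2.66 to 1.74, Jun -0.83 to 0.05, Junb -0.61 to 0.08, Jund 0 to 0.36, Egr1 -1.67 to 0.81, Atf3 -1.01 to 1.67, Dusp1 -0.88 to 0.83, Hspa1a -0.20 to 0.22 and Hspa1b -0.24 to 0.47. For the genotype difference in epithelial cells these were Fos -0.32 to 0.36, Fosb -0.46 to 0.33, Jun -0.40 to 0.19, Junb -0.02 to 0.44, Egr1 -0.58 to 0.15 and Atf3 -0.41 to 0.34. For the genotype difference in untreated wall these were Fos -1.06 to 0.17 and Junb -0.06 to 0.23.

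Without the 4 libraries numbered 4, the genotype difference in DSS wall turned to 0.56 for Fos, 1.46 for Fosb, 0.02 for Jun, 0.28 for Junb, 0.95 for Egr1, 1.28 for Atf3 and 0.76 for Dusp1. The DSS change in control wall turned to -2.52 for Fosb, -1.41 for Atf3 and -0.17 for Hspa1a, and the interaction to 0.78 for Fos and 0.35 for Jun.

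Replicate numbers did not pair the libraries: same-numbered pairs correlated at -0.54 to 0.27 in epithelial cells (1 of 4 over 0.1), -0.32 to 0.27 in wall (3 of 24) and -0.28 to 0.25 in both tissues (4 of 24). With a replicate block, calls went to 7 genes between genotypes in untreated wall, 0 in DSS wall and 3 of the 10 after DSS in control wall, where Egr1 (1.78, edgeR adjusted p = 0.0795) and Dusp1 (1.17, 0.068) were lost. It also ended the Hspa1a call between epithelium and wall in caNrf2 mice (1.97, edgeR adjusted p = 0.0895) and added Fosb after DSS in caNrf2 wall (3.19, 0.0338). The block turned Fos to -0.06 between genotypes in epithelial cells, Atf3 to 0.33 in DSS wall, Fosb to -0.78 and Atf3 to -0.43 for DSS in control wall, and Fos to 0.16 for the interaction with DSS.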
